A study of Mus musculus with 8 samples.

Results

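The genes described here encode the SET1/MLL histone methyltransferase complexes and the Sin3 histone deacetylase complex, which are connected to the TET enzymes and to the O-GlcNAc transferase OGT. Members were the rows of the deposited table whose gene name was among 34 listed names, and 33 of the 19429 genes matched: 19 of the SET1/MLL group, which includes Hcfc1, and 14 of the Sin3/HDAC group. Pagr1a was not analysed here. The samples were mESCs of the line LF2, grown in medium with LIF and serum, and every line, WT included, had a FLAG tag at the C-terminus of TET1 and co-expressed GFP or tdTomato from the same transcript. WT lines (2 and 5) were compared in the study with D2018A lines (7 and 8), in which both copies of Tet1 carry the mutation that impairs OGT binding, and each line was sequenced as 2 technical replicates, giving 4 WT and 4 D2018A libraries. The lines were clonal, and the study describes a deletion beyond the Cas9 cut at Tet1 that WT cells carry and D2018A cells do not.

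SET1/MLL complexes place methyl groups on lysine 4 of histone H3, a mark of active promoters and enhancers. Each complex holds a methyltransferase subunit around a shared core of WDR5, RBBP5, ASH2L and DPY30. The Sin3 complex removes acetyl groups from histones through HDAC1 and HDAC2 and is known for repression, although it also sits at active genes. TET proteins and OGT are known to associate with both machineries: HCF-1, the protein of Hcfc1, is a SET1/MLL subunit that OGT both glycosylates and cleaves, and SIN3A binds OGT and TET1.

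The deposited value is a mean over all libraries of the authors' fit, so neither WT and D2018A cells nor single libraries can be told apart in it. The values that 1 read in 1 library would give were recognised from the low end of the table, where 12 such values recurred in 38 to 123 genes apiece. The mean was therefore taken to cover 12 libraries, 4 more than the 8 described. What the other 4 contain is not given in the sources used here. Size factors read from these values ran from 0.726 to 1.47, and the means summed to 10937569 normalised counts. Markers of embryonic stem cells were high, with all 6 at or above the 75th percentile of protein-coding genes, from 519.5 normalised counts per kb for Zfp42 to 3817 for Esrrb. Of 4 fibroblast markers, Col3a1 had a mean of 0.0930 normalised counts and Col1a2 of 0.689, while Col1a1 reached 115 and Thy1 194. The primitive endoderm markers had means between 10.2 and 331, the trophectoderm markers between 1.49 and 199, and the mesoderm markers T and Mixl1 had 3.99 and 11.8. Per kb, Sox7, Thy1 and Eomes stood above the protein-coding median, at percentiles 74.0, 65.9 and 60.7. The other fibroblast, primitive endoderm, trophectoderm and mesoderm markers were below it. Of the neural markers, Tubb3 (mean 1736) was above the 75th percentile, and Pax6 (190) and Sox1 (199) were not. A lower level can reflect fewer cells that express a gene or less RNA per cell, which bulk RNA does not separate.

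In the pooled mean, most SET1/MLL genes had higher levels than most Sin3/HDAC genes. Levels are given as mean normalised counts per kb of annotated exon, a scale on which genes of different length can be compared. The median over the 19 SET1/MLL genes was 295.5, and 18 of the 19 lay at or above the 75th percentile of the 16922 protein-coding genes (105.5 per kb), where 25% of genes lie by definition. The median of the 14 Sin3/HDAC genes was 74.9, with 4 of 14 at or above that percentile. The median of all protein-coding genes was 24.5. The SET1/MLL median was thus 3.94-fold above the Sin3/HDAC median, and the ranges overlapped, from 11.2 to 3725 per kb in the first group and from 6.20 to 891 in the second. These are descriptions of pooled means, with no replicate spread and no test.

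**Figure D1:**
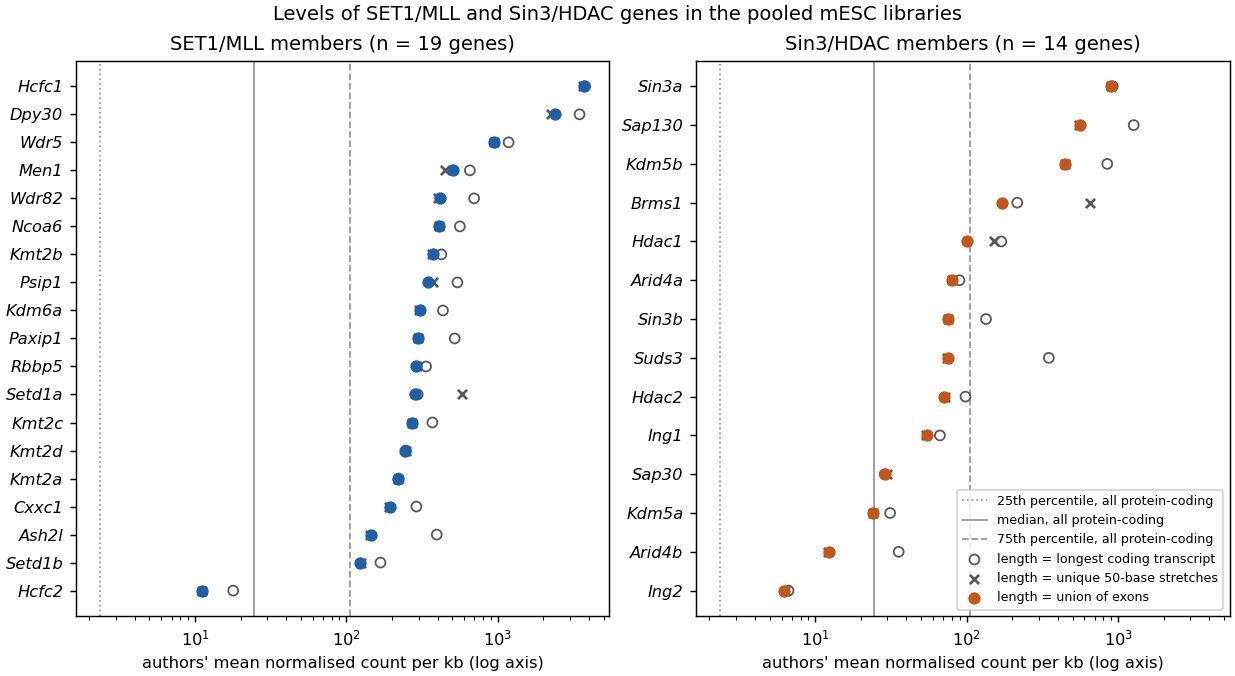
Level of each member in mean normalised counts per kb (log axis), with filled points for the union of exons as gene length, open circles for the longest coding transcript and crosses for unique 50-base stretches. Grey lines mark the 25th percentile, the median and the 75th percentile of protein-coding genes on the exon-union scale; every SET1/MLL gene except Hcfc2 lies to the right of the 75th percentile, while Sin3/HDAC genes lie on both sides of it.

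Hcfc1 had the highest level of all members. This gene (chromosome X, 73942792 to 73966357, minus strand, GRCm38) had a mean of 31142 normalised counts and a level of 3725 per kb, at percentile 99.7 of protein-coding genes. It was 1.56-fold above Dpy30, the next member, or 1.09-fold with the longest coding transcript as length. Its paralog Hcfc2 (chromosome 10, 82696160 to 82742428, plus strand) encodes a related protein that lacks the repeats cleaved by OGT, and its mean was 61.2 normalised counts, or 11.2 per kb, at percentile 39.0. Hcfc2 was the only SET1/MLL gene below the median of protein-coding genes. The Hcfc1 level was 334-fold above that of Hcfc2, or 211-fold with the longest coding transcript as length and 509-fold without division by length, with a counting error of 0.16% on the Hcfc1 mean and 3.70% on the Hcfc2 mean.

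The RefSeq promoters of this pair are shown because no other paralog pair differed as much in level. They are also shown for their CpG dinucleotides, in capitals, which can carry methylcytosine, the substrate of TET enzymes. CpGs are also the target of CXXC domains such as those of TET1, CFP1 and MLL1. The letters do not show whether a CpG is methylated. Each promoter is 300 bases long, from 250 before to 50 after a RefSeq start on GRCm38.p6, read on the gene's strand. The Hcfc1 promoter (chrX:73966308-73966607, minus strand) holds 21 CpGs, and that of Hcfc2 (chr10:82698757-82699056, plus strand) holds 18, although its RefSeq start lies 2847 bases inside the gene as the deposited table bounds it.
Hcfc1: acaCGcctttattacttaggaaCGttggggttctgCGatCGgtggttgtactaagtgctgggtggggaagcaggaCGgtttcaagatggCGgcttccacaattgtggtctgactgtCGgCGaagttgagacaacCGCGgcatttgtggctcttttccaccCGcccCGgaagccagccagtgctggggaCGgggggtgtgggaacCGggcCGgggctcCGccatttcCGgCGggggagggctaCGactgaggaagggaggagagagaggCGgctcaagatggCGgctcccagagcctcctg
Hcfc2: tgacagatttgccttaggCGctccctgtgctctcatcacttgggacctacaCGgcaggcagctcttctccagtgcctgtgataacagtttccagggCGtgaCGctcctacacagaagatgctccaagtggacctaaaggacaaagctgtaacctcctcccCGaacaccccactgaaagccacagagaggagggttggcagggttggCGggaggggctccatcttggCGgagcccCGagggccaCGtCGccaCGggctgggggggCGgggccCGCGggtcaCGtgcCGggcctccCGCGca

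Promoters of 23 members were matched by symbol. Their median was 22 CpGs per 300 bases, against 18 over the promoters of 12888 protein-coding genes of the table, and the middle of that distribution, from 9 to 27, contains it. The median was 21.5 CpGs for 14 SET1/MLL promoters and 22 for 9 Sin3/HDAC promoters. Kmt2c had the most, 56, while Dpy30 and Ncoa6 had 1 each, and the RefSeq start of Ncoa6 lies 33111 bases inside the gene, counted from its 5′ end in the table. The letters AAGATGGC, part of the site known for YY1, occurred on either strand in the promoters of Hcfc1 and Wdr82, 8.70% of members against 3.91% of all promoters. Hcfc1 held it in 2 copies, and 19 of the 12888 promoters held 2 or more. CCGGAAG, a core of ETS factor sites, was found in 2 member promoters (8.70%, against 15.1% of all), CACGTG in 2 (8.70%, against 9.44%), GCGCATGC, part of an NRF1 site, in 1 (4.35%, against 4.68%), and CCAAT in 6 (26.1%, against 38.2%). A match describes these letters and is not a site.

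The 6 methyltransferase genes lay within 3.04-fold of each other with the exon union, and within 4.66-fold over unique stretches, where Setd1a was highest. Kmt2b had the highest level of them, 374 per kb, followed by Setd1a with 282, Kmt2c with 273, Kmt2d with 246, Kmt2a with 218 and Setd1b with 123. Kmt2a and Kmt2b encode MLL1 and MLL2, which act at promoters, Kmt2c and Kmt2d encode MLL3 and MLL4, which act mainly at enhancers, and Setd1a and Setd1b encode the SET1 enzymes, which carry out most of the trimethylation. All 6 were above the 75th percentile of protein-coding genes. Kmt2c was 1.11-fold above Kmt2d and Kmt2b 1.71-fold above Kmt2a. Setd1a is less certain than the others, because 51.2% of its 50-base stretches also occur in Gm49388, an annotated protein-coding gene on the same strand. Gm49388 had no value in the deposited table. With the number of unique stretches as length and the mean unchanged, the Setd1a level was 579 per kb. How reads in the shared stretches were assigned was not tested.

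Of the shared core, Dpy30 and Wdr5 stood above the methyltransferases, and with the exon union Ash2l stood below most of them. Dpy30 (chromosome 17, 74299474 to 74323944), the small subunit that stimulates activity, had a mean of 2733 and a level of 2385 per kb. Wdr5, which binds the methyltransferase, had 3403 and 946 per kb, and Rbbp5, which contacts the catalytic domain together with ASH2L, had 1137 and 289 per kb. Ash2l had 1306 and 146 per kb. The core thus spanned 16.4-fold with the exon union. With the longest coding transcript as length the Ash2l level was 395 per kb, above every methyltransferase except Kmt2b (424). The core, now lowest at Rbbp5, then spanned 10.3-fold.

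With the exon union, the subunits of single complexes were close to the methyltransferases. For the SET1 complexes, Wdr82, which links them to RNA polymerase II, had 412 per kb and Cxxc1, whose protein CFP1 reads unmethylated CpGs, had 193. Men1 and Psip1, encoding menin and LEDGF of the MLL1 and MLL2 complexes, had 507 and 346 per kb. Among the MLL3 and MLL4 subunits, Ncoa6, a nuclear receptor coactivator, had 409, Kdm6a, a demethylase of lysine 27 of histone H3, had 307, and Paxip1, which encodes PTIP, had 295.5 per kb. With the longest coding transcript as length, levels were 697 per kb for Wdr82, 653.5 for Men1, 561 for Ncoa6, 541 for Psip1, 519 for Paxip1 and 434 for Kdm6a. All of these were above Kmt2b (424), the highest methyltransferase on that scale, whereas Cxxc1 (290) was not. Kdm6a lies on the X chromosome, as do Hcfc1 and Ogt. Of the 18 neighbouring pairs in the exon-union order of SET1/MLL levels, only Wdr82 and Ncoa6 differed by less than their counting error. The spread between lines was not available for any of these genes. Some neighbours changed order with length: with the longest coding transcript Psip1 (541) stood above Kmt2b (424), and Paxip1 (519) above Kdm6a (434). Across all 33 members, that order had a rank correlation of 0.96 with the exon-union order.

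In the Sin3/HDAC group Sin3a, Sap130, Kdm5b and Brms1 were at or above the 75th percentile of protein-coding genes with the exon union, and the other 10 genes were below it. Sin3a (chromosome 9, 57072040 to 57128366), the scaffold that binds OGT, had a mean of 4800 and a level of 891 per kb, at percentile 97.2. Its paralog Sin3b had 552 and 75.1 per kb, so that Sin3a was 11.9-fold higher. The deacetylases were moderate, with means of 345 for Hdac1 and 319 for Hdac2 and levels of 100.2 and 71.4 per kb, below Sin3a by 8.90-fold and 12.5-fold. With the longest coding transcript as length Sin3a was 5.44-fold above Hdac1, and over unique stretches 5.91-fold. Hdac1 shares 35.5% of its 50-base stretches with other genes, chiefly Gm10093 (31.7%), and how reads in them were assigned was not tested. With the number of unique stretches as length and the mean unchanged, the Hdac1 level was 151 per kb. Hdac1 stood at percentile 74.0 with the exon union but above the 75th with the longest coding transcript (76.8) and with unique stretches (80.0). Suds3 moved further, from percentile 68.6 with the exon union to 87.6 with the longest coding transcript. Without division by length Suds3 (83.4) and Sin3b (76.7) were above the 75th percentile and Brms1 (66.5) was below it.

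Of the 8 adaptors, Sap130 and Brms1 were at or above the 75th percentile of protein-coding genes with the exon union. Sap130, a Sin3-associated protein, had a mean of 5110 and a level of 562.5 per kb. Brms1 had a mean of 300 and 171 per kb, but 74.4% of its 50-base stretches also lie in AC124502.3, an annotated gene on the same strand. AC124502.3 had no value in the deposited table, and how reads in these stretches were assigned was not tested. With the number of unique stretches as length and the mean unchanged, the Brms1 level was 653 per kb. Arid4a had 79.8 per kb, Suds3, which stabilises the deacetylase assembly, 74.7, and Ing1, a reader of methylated lysine 4, 54.9. Lowest were Sap30 with a mean of 33.8 (28.7 per kb), Arid4b with 209 (12.3 per kb) and Ing2 with 18.7 (6.20 per kb), the last with a counting error of 6.69%. Suds3 depended most on the length used, with 349 per kb over its longest coding transcript, at percentile 87.6. The demethylases of lysine 4 that associate with Sin3 differed strongly, with a mean of 7390 (446 per kb) for Kdm5b and 342 (24.2 per kb) for Kdm5a.

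Within paralog pairs, the level was concentrated in 1 gene for Hcfc1 and Hcfc2, Kdm5b and Kdm5a (18.5-fold), Sin3a and Sin3b, Ing1 and Ing2 (8.86-fold) and Arid4a and Arid4b (6.49-fold), whereas the other 4 pairs differed by between 1.11-fold and 2.29-fold. The largest counting error of these ratios was 0.10 on the log2 scale, for Ing1 and Ing2. No gene shared 1% or more of its 50-base stretches with its partner. Some ratios moved with the length used: Arid4a was 2.15-fold above Arid4b without division by length, Sin3a was 6.87-fold above Sin3b with the longest coding transcript, and Setd1a was 4.67-fold above Setd1b over unique stretches against 2.29-fold with the exon union. The direction was the same under every length used for 8 of the 9 pairs. For Kmt2a and Kmt2b it was lost without division by length, where their means, 3639 and 3588, were nearly equal.

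**Figure D2:**
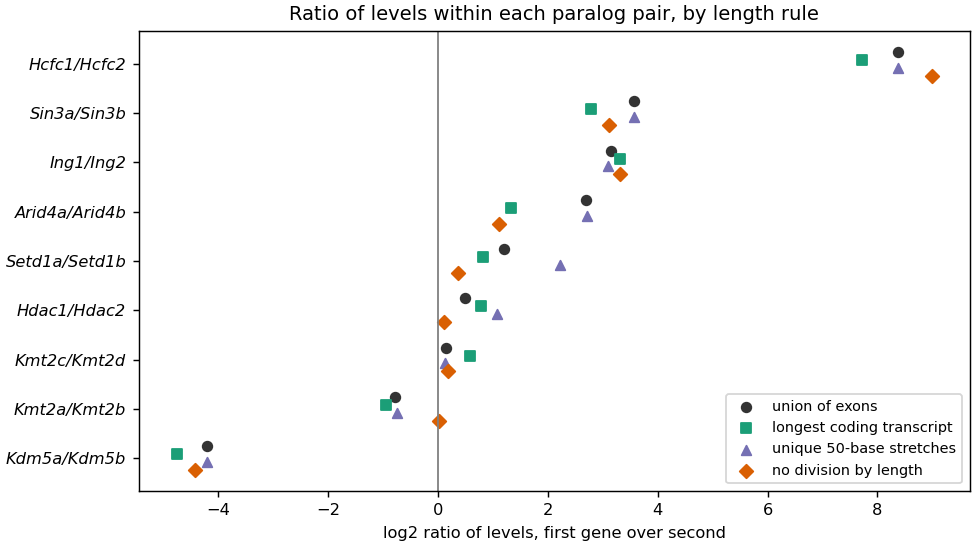
Log2 ratio of the levels of the first gene over the second in each of 9 paralog pairs, under 4 choices of gene length. Hcfc1 over Hcfc2 lies furthest to the right at 8.38 with the exon union, Kdm5a over Kdm5b furthest to the left at -4.21, and Kmt2a over Kmt2b is the only pair whose points fall on both sides of 0.

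Genes that work with these complexes are given for comparison. Of the OGT and TET genes, Tet1 had 1493 per kb, Tet2 921, Ogt 603, Mgea5, which encodes the enzyme that removes O-GlcNAc, 81.0, and Tet3 48.3. The NuRD complex also uses HDAC1 and HDAC2, and its other subunits had a median of 417 per kb, with 7 of 7 at or above the 75th percentile. Chd4, the NuRD remodeller, had 928 per kb. Other Sin3 subunits and recruiters had a median of 85.1 per kb, with 4 of 14 at or above the 75th percentile and 4 below the median of protein-coding genes. They ran from 2.02 for Sap25 to 1266 for the histone chaperone Rbbp4, beyond the Sin3/HDAC members (6.20 to 891) at both ends. Of 6 other genes linked to lysine 4 methylation, 3 were at or above the 75th percentile, among them Kdm5c with 479 per kb and Kdm1a, which encodes LSD1, with 534.

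**Figure D3:**
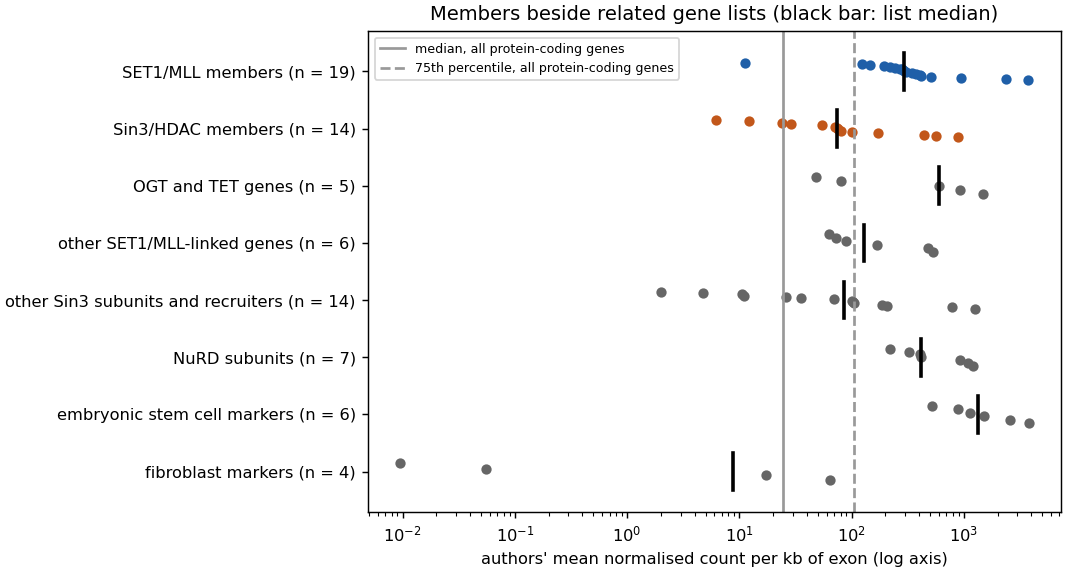
Levels in mean normalised counts per kb of exon (log axis) of the members, of 4 related gene lists and of embryonic stem cell and fibroblast markers, where each point is a gene and the black bar is the list median. SET1/MLL genes (median 295.5) and NuRD subunits (417) lie mostly to the right of the 75th percentile of protein-coding genes, and Sin3/HDAC genes (74.9) and other Sin3 genes (85.1) lie around it.

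Levels were also set beside the GC content of the transcripts. Across 16835 protein-coding genes the level per kb of longest coding transcript rose weakly with GC content (Spearman's rho 0.16, across genes of the same libraries, which are not independent replicates). The median level was 17.0 per kb in the lowest of 10 equal GC bins and 61.0 in the ninth. Across the 33 members rho was 0.085, with -0.20 across the 19 SET1/MLL genes and 0.42 across the 14 Sin3/HDAC genes. The groups had similar GC content, with medians of 50.3% for SET1/MLL and 49.1% for Sin3/HDAC. Dpy30 (GC 42.3%) and Hcfc1 (54.4%) were at percentiles 99.9 and 99.2 of their own GC bins. Against genes of similar GC content, 17 of 19 SET1/MLL and 6 of 14 Sin3/HDAC genes were at or above the 75th percentile. With the same length but without GC bins, these counts were 18 and 6.

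**Figure D4:**
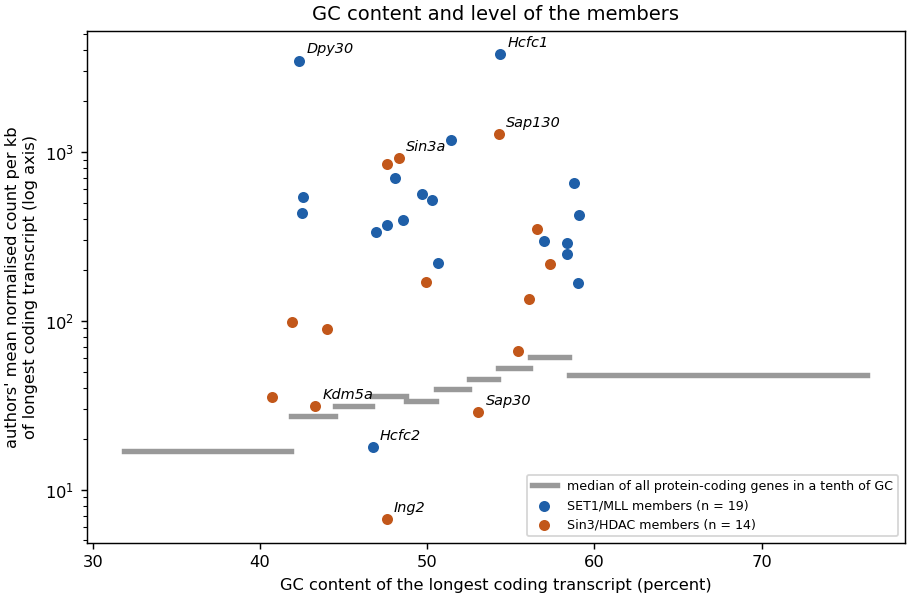
GC content of the longest coding transcript of each member against its level per kb of that transcript (log axis), with grey bars for the median of all protein-coding genes in each of 10 GC bins. The bars rise from 17.0 per kb to 61.0 in the ninth bin and stand at 47.5 in the last, and 30 of the 33 members lie above the bar of their own bin, with Hcfc2, Ing2 and Sap30 below it.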

How the data were processed

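LF2 mESCs were profiled by RNA-seq. Per the labels and the study's methods, ribosomal RNA was removed and libraries were made with the Lexogen SENSE kit. Reads (single-end, 50 bases) were mapped to GRCm38.p6 and counted per gene with STAR 2.5.3a. The strand setting of the counting is not given in the sources used here. The deposited signal is the mean normalised count of each gene, which the authors made with DESeq2 1.20.0 by dividing counts by a size factor per library and averaging over all libraries. The same table also holds the authors' own D2018A against WT comparison (a log2 fold change, its standard error, a statistic, a p-value and an adjusted p-value). Those columns were not used, and without values per library the genotypes could not be compared, so no test was run. No spread between lines accompanies any value.

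Members were matched by the name column. Each mean was divided by the length of the union of annotated exons (GENCODE M21, GRCm38) to give a level per kilobase, and levels were placed as percentiles among the 16922 protein-coding genes with annotated exons. The number of libraries in the mean was read from the values that a single read gives. A value was kept where 30 or more genes had it and no combination of lower values gave it. Counting error assumes the same level in every library and covers the sampling of reads only. Stretches of 50 bases were compared among all annotated transcripts on either strand. For levels over unique stretches, the whole mean was divided by the number of stretches found in no other gene. No reads were taken out of the mean for this. Promoters are those of RefSeq on GRCm38.p6. Python 3.11.15, numpy 2.4.6, pandas 2.3.3 and scipy 1.17.1 were used, and the recognition of single-read values, the search for shared stretches and the GC bins were tested on simulated data. All 33 matched members were named. The related gene lists and the cell type markers were summarised by list, and only some of their genes were named. The members and lists were chosen with earlier results of these data known.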

Additional observations from a re-analysis of the deposited data

How the results depend on the processing

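The values describe pooled means, so leaving out a replicate or a library was not possible, and no paired analysis was possible because the table carries no replicate. Depth limits mainly Ing2, Sap30 and Hcfc2, the members with the smallest means. Levels moved beyond their counting error mostly with the length used. Over the longest coding transcript instead of the exon union, levels were between 1.00 and 4.67 times as high, and over unique stretches between 0.886 (Men1) and 3.81 times (Brms1). The median percentile of SET1/MLL genes (89.9) was 89.5 with the longest coding transcript, 89.4 with unique stretches, 95.2 without division by length, 91.0 among all genes of the table, 86.2 when genes under a mean of 10 were left out and 91.5 without the methyltransferases. For Sin3/HDAC genes (68.7) it was 69.7, 67.4, 68.9, 72.2 and 57.2 in the same order, and 68.7 without the deacetylases and KDM5 genes. Within GC bins, a choice made after the data were seen, the medians were 89.99 and 73.5. These used the longest coding transcript as length, for which the medians without bins were 89.5 and 69.7. The counts of 18 and 4 genes at or above the 75th percentile stayed within 1.5-fold under every choice run, from 16 to 18 and from 4 to 6.

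The log2 ratios with the exon union were 1.197 (Setd1a over Setd1b), -0.78 (Kmt2a over Kmt2b), 0.15 (Kmt2c over Kmt2d), 8.38 (Hcfc1 over Hcfc2), 3.57 (Sin3a over Sin3b), 0.49 (Hdac1 over Hdac2), 3.15 (Ing1 over Ing2), 2.70 (Arid4a over Arid4b) and -4.21 (Kdm5a over Kdm5b). In the same order they were 0.82, -0.94, 0.58, 7.72, 2.78, 0.79, 3.32, 1.33 and -4.76 with the longest coding transcript, 2.22, -0.74, 0.13, 8.37, 3.57, 1.08, 3.09, 2.71 and -4.20 with unique stretches, and 0.37, 0.02, 0.18, 8.99, 3.12, 0.11, 3.32, 1.10 and -4.43 without division by length. The ratio of Kmt2a over Kmt2b thus changed sign only without division by length. The Kmt2a exons are longer, and the means of the pair were nearly equal, 3639 and 3588.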
